A study of Mus musculus with 12 samples.

Results

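Kinesins are the ATP-driven motor proteins that walk along or dismantle microtubules, and the genes described here are the protein-coding mouse genes with a Kif or Kifc symbol. The array held a probe set for 42 of them, out of 25428 probe sets in all. By role they were divided into 14 motors of the mitotic spindle, 17 motors of intracellular transport and 11 others. The others act mainly at cilia or on microtubule ends, or their cargo is less clear. Some kinesin families, among them kinesin-4, were split between these classes. All 42 were tested, and none was removed for a low value.

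Most transport kinesins pull vesicles, mitochondria and other cargo towards the plus ends of microtubules, which in an axon lie away from the cell body, so a neuron depends on them to supply its terminals. Mitotic kinesins separate the spindle poles, move and align chromosomes and complete cytokinesis. Their transcripts build up in dividing cells towards mitosis and are low in neurons that have left the cell cycle. A striatum shortly before birth holds many young neurons beside progenitors of the ganglionic eminence that still divide, and both classes of motor can therefore be read from the same RNA.

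Striatal tissue from both hemispheres of mouse embryos at embryonic day 18.5 was measured on 12 arrays, with 6 wild-type (WT) samples and 6 samples labelled Nestin-Cre (Foxp1-/-), called cKO here, all on the C57BL/6J background. Cre driven by Nestin acts in neural progenitors and their progeny, and Foxp1 encodes a forkhead transcription factor of striatal projection neurons. The labels do not state the sex of the embryos or whether the WT animals carried Cre or modified Foxp1 alleles. The samples of each group are described as biological replicates, and whether a sample is 1 embryo or a pool is not stated. Values are RMA log2 expression, in which 1 unit is a doubling, and differences are cKO minus WT with limma's standard error (SE) over 6 arrays a group. A gene was called when its limma p value, adjusted by the method of Benjamini and Hochberg over all 25428 probe sets, was below 0.05.

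Foxp1 itself averaged 11.14 ± 0.17 (SD, n = 6) over the WT arrays and 10.23 ± 0.077 (SD, n = 6) over the cKO arrays, a fall of 1.88-fold (limma adjusted p = 0.00017), and its arrays did not overlap between the groups. All 11 measured markers of striatal projection neurons had mean levels above the median of all values, 5.71, as did 50% of all probe sets. Correlations between arrays lay between 0.992 and 0.998. RMA gives the arrays a common distribution, so a change shared by all genes cannot be seen. Probe response differs between probe sets, so levels are not ranked from gene to gene. A level above or below the median of all values has the same limit and is given only as a rough guide. One library stood apart in a marker of another tissue: Ttr, a transthyretin gene abundant in choroid plexus, read 9.96 in cKO replicate 1 and between 5.39 and 5.57 in the other 11 arrays.

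Most promoters of the mitotic kinesins carry a shared sequence feature, which is shown first. A link between this feature and the expression values was not tested. Late cell cycle genes are known for the cell cycle genes homology region (CHR), with the letters TTTGAA, and for CCAAT boxes, which bind the factor NF-Y. Both were sought on both strands in RefSeq promoters of the GRCm38.p6 assembly, which run from 250 bases before the annotated start to 50 after it. An entry was found for 33 of the 42 genes. Kif5a, Kif5b, Kif13b, Kif19a, Kif20a, Kif21b, Kif28, Kifc2 and Kifc3 had none. The motifs were chosen after the expression values were known. In the sequences, written 5′ to 3′ on the strand of the gene and each running from 80 bases before the start to 30 after it, capitals mark CHR and CCAAT letters on either strand. They show the genes with the largest mitotic differences and a contrast: the first 5 have a CCAAT box at most 40 bases upstream of a CHR, Kif15 has a CHR without a CCAAT box, and Kif5c, a transport motor, has neither.
Kif11 (chr19:37376302-37376411, + strand): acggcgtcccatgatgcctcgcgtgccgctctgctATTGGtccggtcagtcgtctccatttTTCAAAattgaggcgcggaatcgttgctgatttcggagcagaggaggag
Kif23 (chr9:61946770-61946879, - strand): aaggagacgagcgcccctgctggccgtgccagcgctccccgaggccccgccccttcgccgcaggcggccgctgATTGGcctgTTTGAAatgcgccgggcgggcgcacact
Kif18b (chr11:102925095-102925204, - strand): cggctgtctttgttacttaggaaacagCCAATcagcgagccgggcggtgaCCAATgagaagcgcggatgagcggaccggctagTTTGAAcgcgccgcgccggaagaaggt
Kif22 (chr7:127042391-127042500, - strand): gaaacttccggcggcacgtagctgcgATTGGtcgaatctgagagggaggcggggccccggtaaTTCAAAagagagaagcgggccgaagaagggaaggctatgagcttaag
Kif4 (chrX:100625985-100626094, + strand): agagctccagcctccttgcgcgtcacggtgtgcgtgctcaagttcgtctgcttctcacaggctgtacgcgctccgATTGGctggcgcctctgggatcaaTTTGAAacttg
Kif15 (chr9:122951001-122951110, + strand): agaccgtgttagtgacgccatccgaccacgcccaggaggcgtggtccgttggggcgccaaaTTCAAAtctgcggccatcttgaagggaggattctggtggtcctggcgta
Kif5c (chr2:49619206-49619315, + strand): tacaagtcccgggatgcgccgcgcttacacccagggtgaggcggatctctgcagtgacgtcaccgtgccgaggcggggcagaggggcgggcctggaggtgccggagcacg

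The CHR letters were found in 11 of the 13 mitotic promoters and in 1 of the 11 transport promoters, that of Kif1a, and in 2 of the 9 other promoters, those of Kif26b and Kif27. Among all 17492 protein-coding genes with a promoter entry, 18.5% held them. The mitotic promoters without them were those of Kif18a and Kif2b. In the 150 bases nearest the start, from 100 before to 50 after it, 9 of 13 mitotic genes held the letters against 7.94% of all genes. A CCAAT box stood in 9 of 13 mitotic, 3 of 11 transport and 4 of 9 other promoters, against 42.3% of all genes. Both motifs together occurred in 8 of 13 mitotic, 0 of 11 transport and 2 of 9 other promoters, again Kif26b and Kif27, against 7.40% of all genes. Each count of mitotic promoters with a motif includes both Kifc1 and its near-identical copy Kifc5b. Their promoters hold a CHR and CCAAT boxes in a like arrangement, so the pair does not count as separate observations.

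The spacing varied among the mitotic genes. In Kif11 the CHR letters begin 19 bases before the start, with 21 bases between them and the CCAAT box. The gap was 4 bases in Kif23, 28 in Kif18b, 32 in Kif22 and 19 in Kif4. A CCAAT box at most 40 bases upstream of a CHR was present in these 5 of 13 mitotic genes. It was present in 0 of 11 transport genes, in 1 of 9 others, Kif27, and in 1.73% of all genes. Kifc1 and Kifc5b, the mitotic genes with negative differences, fell just outside this limit. In Kifc1 a box ends at base -41 and the CHR begins at base 2, and in Kifc5b these are bases -13 and 30. The count thus depends on the limit, and its match with the size of the differences has no weight. In Kif15 the CHR letters follow directly on an E2F-type sequence, TTTGGCGC on the reverse strand, which was also found in Kif18a and in 0.726% of all genes. The forkhead core TAAACA, sought because Foxp1 is a forkhead factor, was present in the promoter of 1 of the 33 genes, Kif2c, and in 13.2% of all genes. The GC box GGGCGG was found in 6 of 13 mitotic, 9 of 11 transport and 6 of 9 other promoters and in 49.2% of all genes. The other searches were TTCGAA (2.13% of all genes), TTTAAA (13.8%), TTCCCGCC (3.28%) and TTCAGCACC (0.480%), which occurred in 0, 2, 0 and 1 of the mitotic and in 0 of the transport promoters. Among the others TTCGAA was found in Kif24 and TTCCCGCC in Kif6. A match of letters is a description of the sequence, and occupancy was not measured here.

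**Figure D1:**
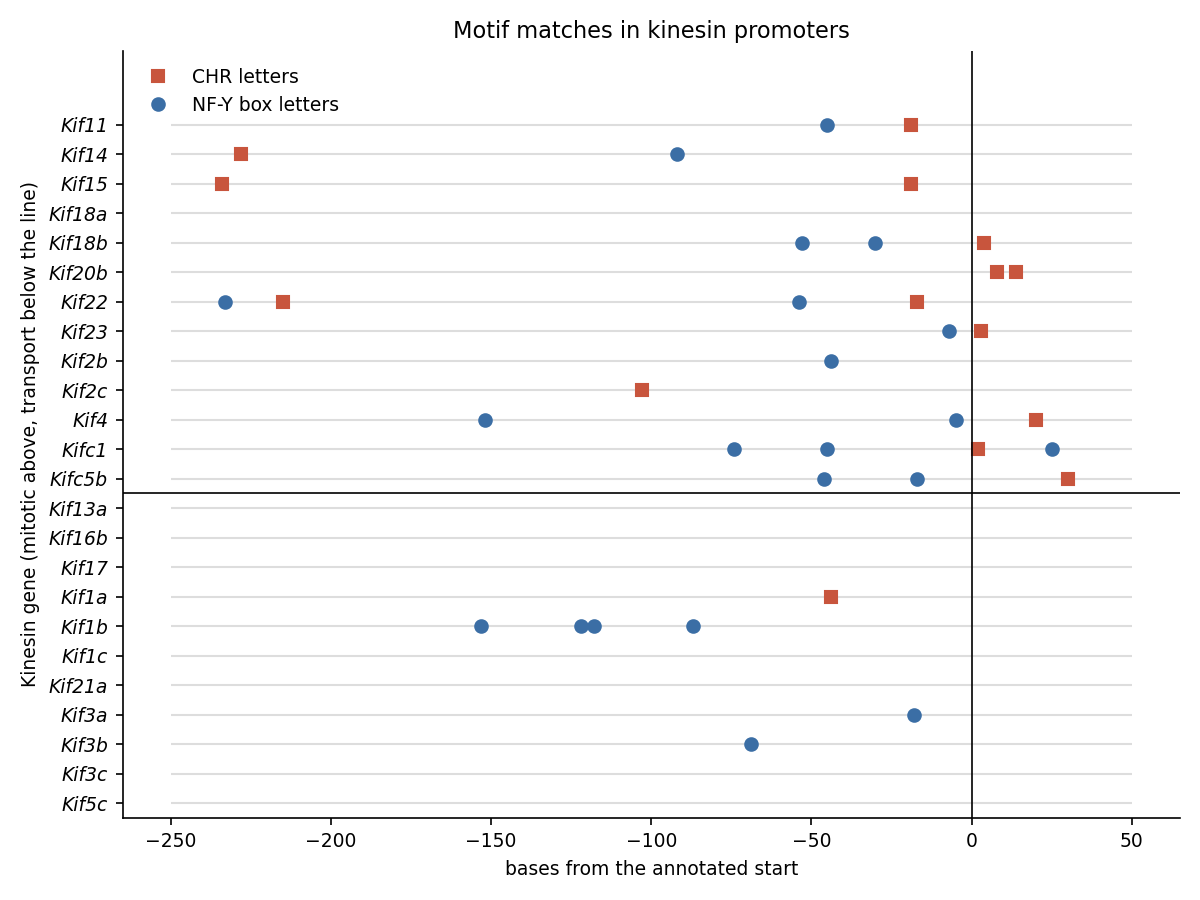
Positions of the CHR letters (squares) and of the CCAAT box, labelled NF-Y box (circles), in the promoters of 13 mitotic and 11 transport kinesin genes, in bases from the annotated start; genes with more than 1 promoter show all matches. The mitotic genes carry squares close to the start in 9 of 13 cases, and Kif1a is the transport gene with one.

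No kinesin gene passed the test between cKO and WT. In limma 0 of 42 had an adjusted p below 0.05, against 0.728% of all probe sets (0.299% higher and 0.429% lower in cKO), and the smallest was 0.200, for Kif11. At an unadjusted p below 0.05 there were 7 of 42, or 16.7%, against 10.7% of all probe sets and 15.7% of those above the median level, where 34 of the 42 lie. Of these, 5 had positive differences, Kif11, Kif23, Kif18b, Kif15 and Kif13a, against 5.06% of all probe sets, and 2 had negative ones, Kif5a and Kif26b, against 5.67%. Among the 14 mitotic genes 4 were higher at this level, or 28.6%, but genes that vary together across arrays do not count as separate observations. The 6 cKO and 6 WT arrays overlapped for every kinesin gene, while 1.38% of all probe sets had groups that did not overlap (0.562% higher and 0.822% lower in cKO). Positive differences were found in 12 of 14 mitotic, 9 of 17 transport and 6 of 11 other genes, against 48.8% of all probe sets. The median log2 difference was 0.059 for mitotic and 0.0073 for transport motors, beside -0.00077 for all probe sets.

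**Figure D2:**
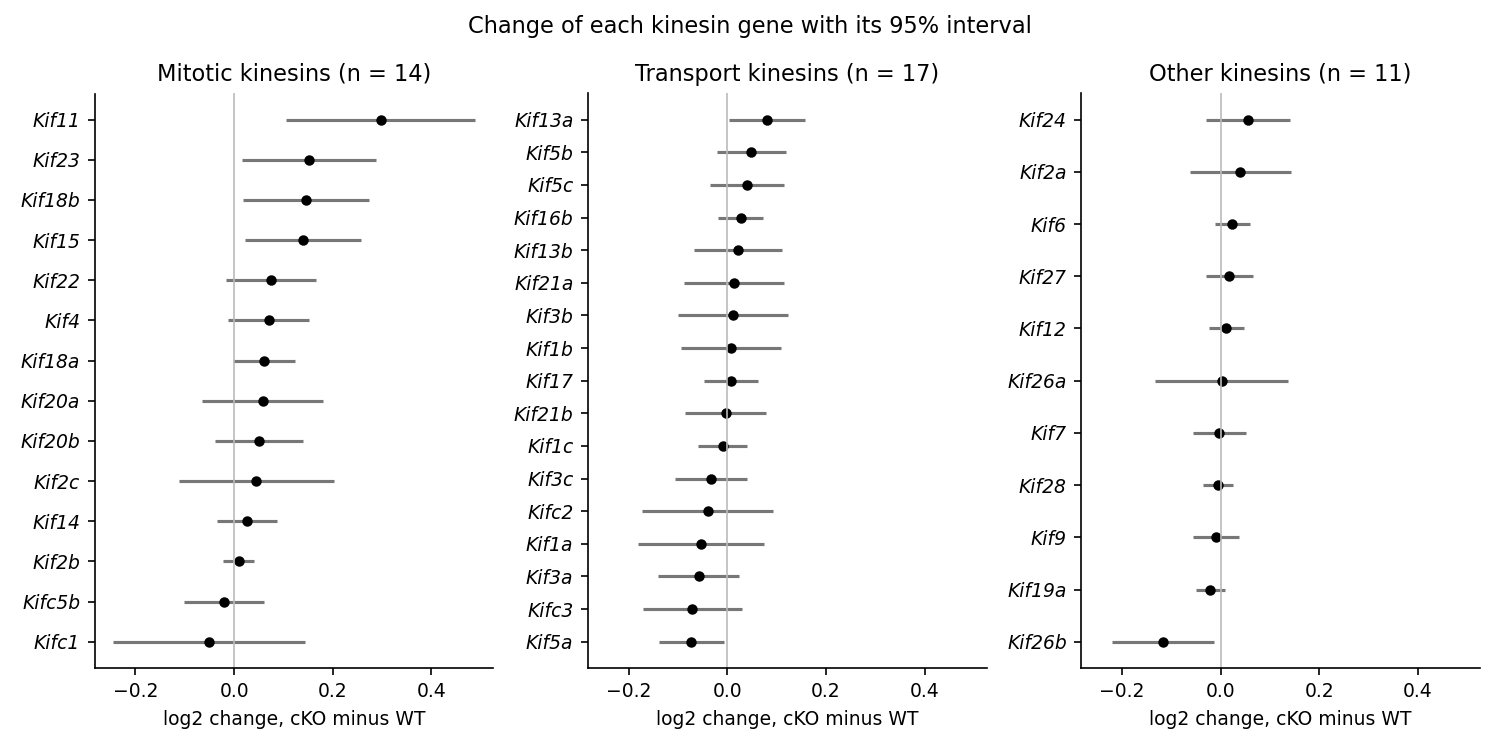
Log2 difference of each kinesin gene, cKO minus WT (points), with limma's 95% interval (lines), for 14 mitotic, 17 transport and 11 other genes. Mitotic genes lie mostly to the right of 0, with Kif11 at 0.30, while transport genes lie on both sides between -0.073 and 0.080.

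Among the mitotic motors Kif11, the plus-end motor of the kinesin-5 family that slides the spindle poles apart, had the largest difference. Its log2 expression spanned 6.95 to 7.43 over the WT arrays (median 7.15) and 7.25 to 7.61 over the cKO arrays (median 7.53). Of the cKO arrays, 4 lay above every WT array and the remaining 2, replicates 4 and 6, lay within the WT range. The means were 7.18 ± 0.18 (SD, n = 6) over the WT arrays and 7.48 ± 0.14 (SD, n = 6) over the cKO arrays, and the difference was 0.30 ± 0.088 (SE), or 1.23-fold, with a 95% interval of 0.11 to 0.49 (limma adjusted p = 0.200). Among the alternatives its adjusted p lay between 0.0933, after removal of dim probe sets, and 0.456. When 4 cortical genes entered the fit as a covariate, the difference was 0.29 (adjusted p = 0.432).

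Kinesin-6 motors bundle the microtubules of the central spindle and are needed for cytokinesis. Kif23, the motor subunit of the centralspindlin complex, spanned 6.25 to 6.61 over the WT arrays (median 6.37) and 6.39 to 6.69 over the cKO arrays (median 6.54). WT replicate 2, at 6.61, reached far into the cKO range, 2 cKO arrays lay above it, and 4 WT arrays lay below every cKO array. The difference was 0.15 ± 0.062 (SE; limma adjusted p = 0.385). It was 0.058 ± 0.056 for Kif20a, which carries the chromosomal passenger complex to the central spindle (adjusted p = 0.769), and 0.050 ± 0.041 for Kif20b, also a cytokinesis motor (adjusted p = 0.723). All 3 differences were positive, but those of Kif20a and Kif20b were close to their standard errors.

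The kinesin-8 motors Kif18a and Kif18b control the length of spindle microtubules, and Kif18a damps the movements of chromosomes at the spindle equator. Kif18b spanned 6.08 to 6.39 over the WT arrays (median 6.22) and 6.25 to 6.50 over the cKO arrays (median 6.42). The pattern was that of Kif11: 4 cKO arrays lay above all WT arrays and 4 WT arrays below all cKO arrays. Its difference was 0.15 ± 0.058 (SE; limma adjusted p = 0.373), and that of Kif18a was 0.060 ± 0.029 (adjusted p = 0.489). For Kif18a the highest value of all 12 arrays was in WT replicate 2, at 5.98, and 4 WT arrays lay below every cKO array.

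Kif15, the kinesin-12 motor that can keep a bipolar spindle when Kif11 is inhibited, spanned 5.81 to 5.98 over the WT arrays (median 5.91) and 5.92 to 6.21 over the cKO arrays (median 5.98). The highest values were in cKO replicates 3 and 5, at 6.21 and 6.18, and the other 4 cKO arrays lay between 5.92 and 5.99, beside a highest WT array of 5.98. Its difference was 0.14 ± 0.054 (SE; limma adjusted p = 0.361). The chromokinesins Kif22 and Kif4, which bind chromosome arms, had differences of 0.076 ± 0.042 (adjusted p = 0.560) and 0.070 ± 0.037 (adjusted p = 0.544). In Kif4 the highest array was again WT replicate 2, at 5.93. Kif4 has a pseudogene, Kif4-ps, with a probe set of its own, and whether the probes separate the pair is uncertain.

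The remaining mitotic genes had smaller differences. Kif2c, which depolymerises microtubules at centromeres, spanned 6.36 to 6.66 over the WT arrays (median 6.54) and 6.40 to 6.81 over the cKO arrays (median 6.51), and its difference was 0.045 ± 0.072 (limma adjusted p = 0.879). Kif14, a cytokinesis motor, had a difference of 0.026 ± 0.028 and Kif2b one of 0.0089 ± 0.015, at a WT mean of 5.41, below the median of all values. The minus-end-directed kinesin-14 motor Kifc1, which focuses spindle poles, and its near-identical copy Kifc5b were the mitotic genes with negative differences, -0.051 ± 0.089 and -0.020 ± 0.037. Whether their probe sets separate these copies is uncertain. In Kifc1 cKO replicate 3 read 6.48 and the other cKO arrays 5.95 to 6.22.

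**Figure D3:**
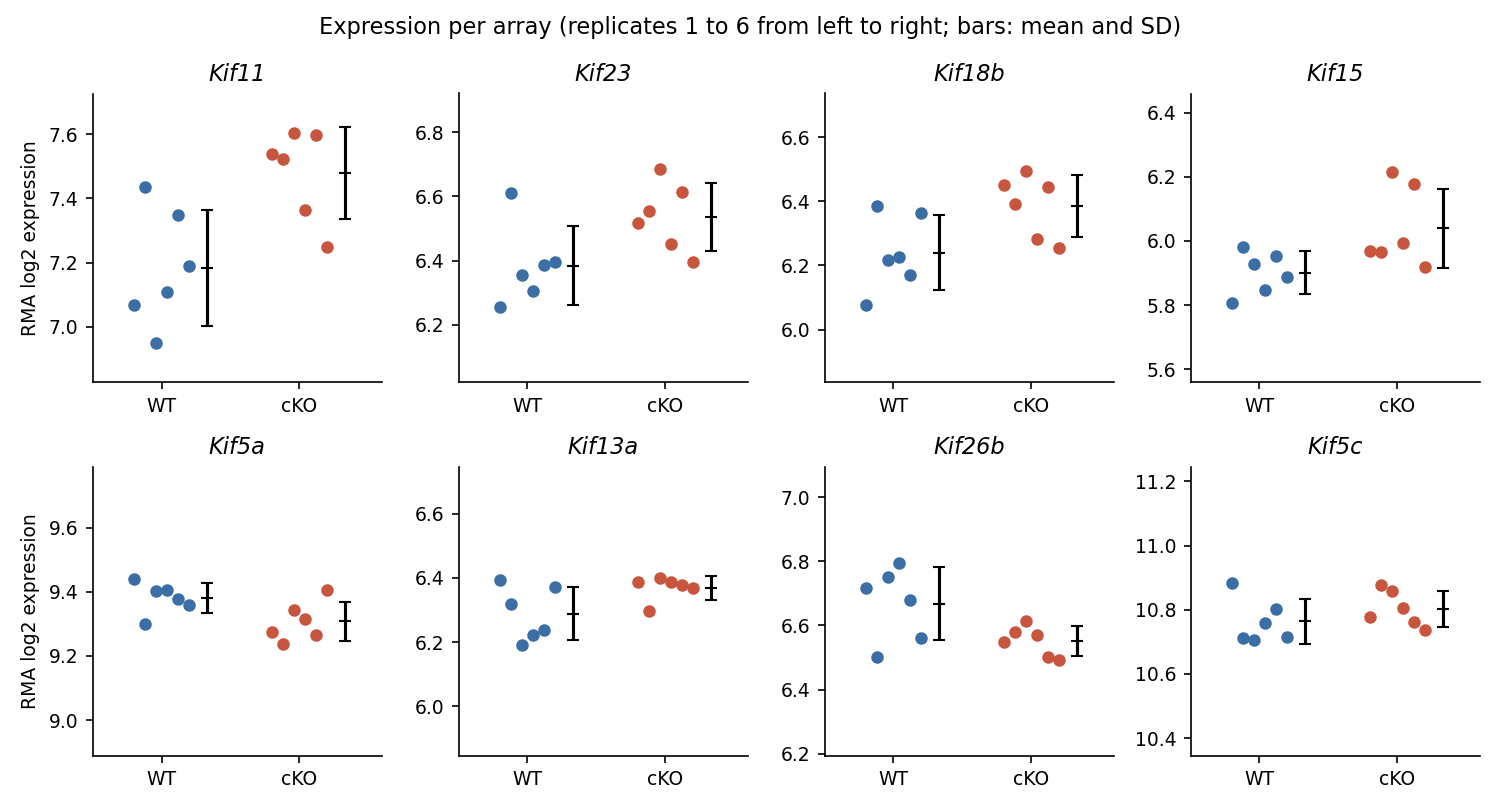
RMA log2 expression of 8 kinesin genes on each array, WT in blue and cKO in red with replicates 1 to 6 from left to right, and the mean with SD (bars, n = 6); every panel spans the same log2 range. The groups overlap in each panel, with 4 of 6 cKO arrays above all WT arrays for Kif11 and Kif18b.

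The mitotic genes were high or low together on single arrays within a genotype. Of the 14, 11 had their highest WT value in WT replicate 2 and 10 had their highest cKO value in cKO replicate 3. The lowest cKO value was in cKO replicate 6 for 6 of them. Averaged over the 14 genes, WT arrays lay between 6.02 and 6.19 (median 6.07) and cKO arrays between 6.07 and 6.26 (median 6.16). The mean of WT replicate 2, 6.19, was thus exceeded by 1 cKO array, and 3 WT arrays lay below the lowest cKO array. The transport genes did not share this order in WT: replicate 2 was the highest WT array for 0 of 17 and the lowest for 5. In cKO, replicate 3 also had the highest mean of the transport genes, 8.28, and was the highest cKO array for 5 of 17. Without WT replicate 2 the mitotic median was 0.084, and 13 of the 14 differences were positive; without cKO replicate 3, 11 were.

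**Figure D4:**
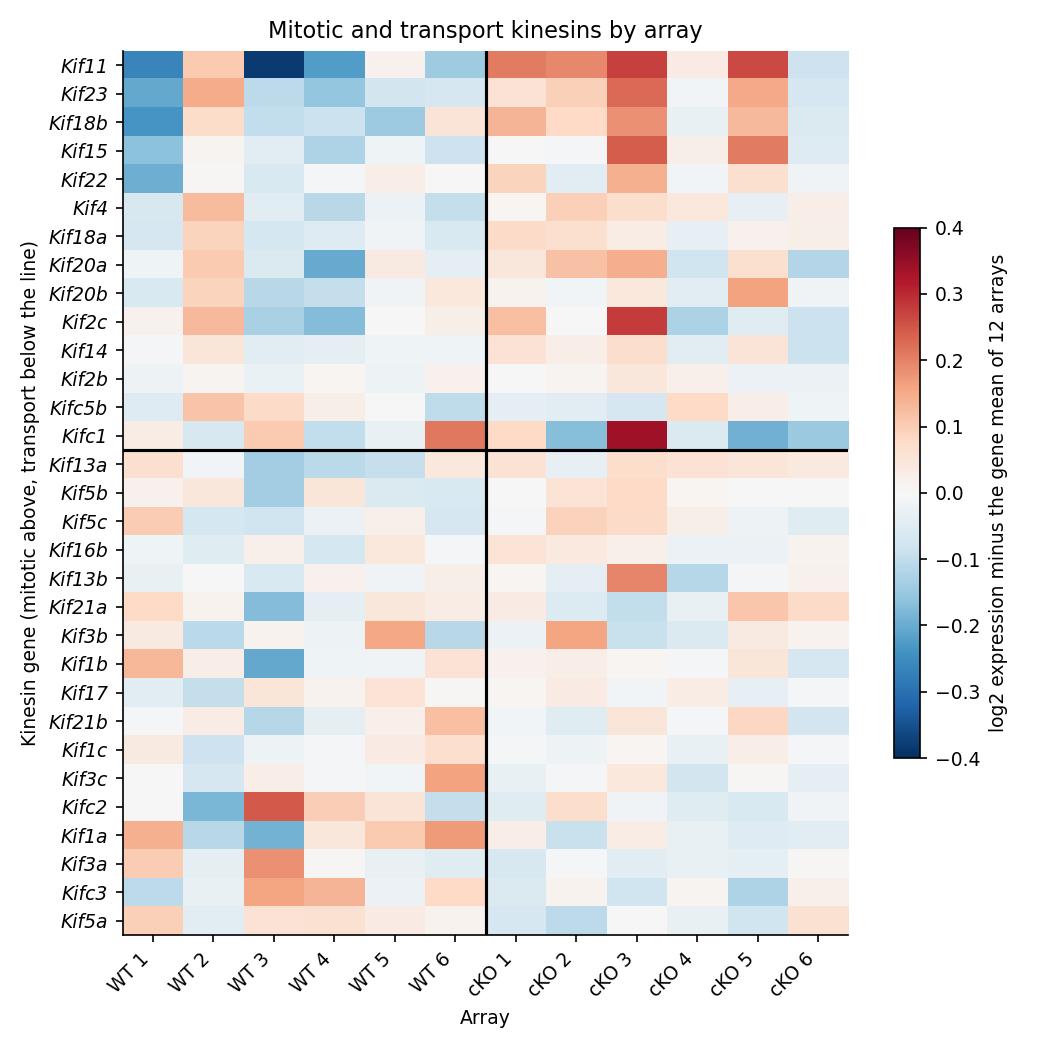
Deviation of each mitotic (above the line) and transport (below) kinesin gene from its own mean over 12 arrays, in log2 units, with WT arrays on the left and cKO arrays on the right. Columns WT 2 and cKO 3 are red across most mitotic genes, with the highest value of their group in 11 and 10 of 14.

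Partners of these motors in the spindle and general markers of dividing cells were high on many of the same arrays. Of 24 measured genes for spindle and cytokinesis partners, 22 had positive differences, with a median of 0.10, and 1 passed, Aurkb, the kinase of the chromosomal passenger complex. Aurkb averaged 6.50 ± 0.069 (SD, n = 6) over the WT arrays and 6.72 ± 0.079 (SD, n = 6) over the cKO arrays, a rise of 0.22 ± 0.040 (SE; limma adjusted p = 0.0303), with no overlap between the groups. That call held in 14 of 25 alternatives, with an adjusted p of 0.0155 to 0.146. At an unadjusted p below 0.05 10 partners were higher and 1 lower. Over all probe sets 5.06% were higher and 5.67% lower at this level, and 48.8% had positive differences. These shares also apply to the lists that follow. In this list and in those, genes that vary together across arrays do not count as separate observations.

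All 11 measured markers of dividing cells had positive differences (median 0.12). In limma 0 of them passed, and 3 were higher at an unadjusted p below 0.05. Ccna2, the cyclin of S and G2 phase, differed by 0.36 ± 0.10 (limma adjusted p = 0.187) and Rrm2, a subunit of ribonucleotide reductase, by 0.18 ± 0.065 (adjusted p = 0.316). The mean of the marker list lay between 7.56 and 7.79 on WT arrays and between 7.61 and 7.87 on cKO arrays. WT replicate 2 was the highest WT array for 7 of the 11 markers and for 14 of the 24 spindle partners. The match was weaker in cKO, where replicate 3 was the highest cKO array for 3 of the 11 markers and 9 of the 24 partners. The highest cKO mean was in replicate 2 for the markers and in replicate 5 for the partners. In bulk tissue a different share of dividing cells cannot be told apart from a different amount of RNA in each.

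Progenitor markers were also mostly positive. For radial glia 7 of 8 differences were positive (median 0.029) and 0 genes passed in limma, with 3 higher at an unadjusted p below 0.05. Sox2, a transcription factor of neural stem cells, differed by 0.37 ± 0.091 (limma adjusted p = 0.111) and Nes, the intermediate filament gene whose regulatory sequence drives this Cre, by 0.23 ± 0.068 (adjusted p = 0.189). For ganglionic eminence progenitors 6 of 7 were positive (median 0.11) and 0 passed, with 4 higher at an unadjusted p below 0.05. Dlx5 and Sp9, transcription factors of these progenitors and their young neurons, differed by 0.17 ± 0.059 (adjusted p = 0.279) and 0.16 ± 0.055 (adjusted p = 0.288).

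Markers of the neighbouring cortex also had higher cKO means. All 7 cortical glutamatergic markers had positive differences and 0 passed in limma, with 2 higher at an unadjusted p below 0.05. Their mean lay between 5.94 and 6.39 on WT arrays and between 6.03 and 6.57 on cKO arrays. Neurod6 and Neurod2, transcription factors of cortical neurons, differed by 0.51 ± 0.21 (limma adjusted p = 0.408) and 0.41 ± 0.18 (adjusted p = 0.410). Array by array, WT replicates 1 to 6 had cortical means of 5.94, 6.21, 5.95, 6.17, 6.39 and 6.13, beside mitotic means of 6.03, 6.19, 6.05, 6.02, 6.10 and 6.10. For cKO replicates 1 to 6 the cortical means were 6.14, 6.40, 6.03, 6.45, 6.55 and 6.57, beside mitotic means of 6.18, 6.15, 6.26, 6.10, 6.18 and 6.07. In WT the arrays with the lowest cortical means, replicates 1 and 3, were also low in the mitotic mean. The lowest mitotic mean, however, was that of WT replicate 4, whose cortical mean was 6.17. In cKO the array with the highest mitotic mean, replicate 3, was the lowest in the cortical mean. The part of cortical cells in the mitotic values was not tested. With 4 cortical genes as a covariate the mitotic median was 0.088 and 13 of 14 differences were positive. The covariate includes Neurod6 and Neurod2, which themselves had higher cKO means, so this fit cannot separate cortical cells from genotype.

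**Figure D5:**
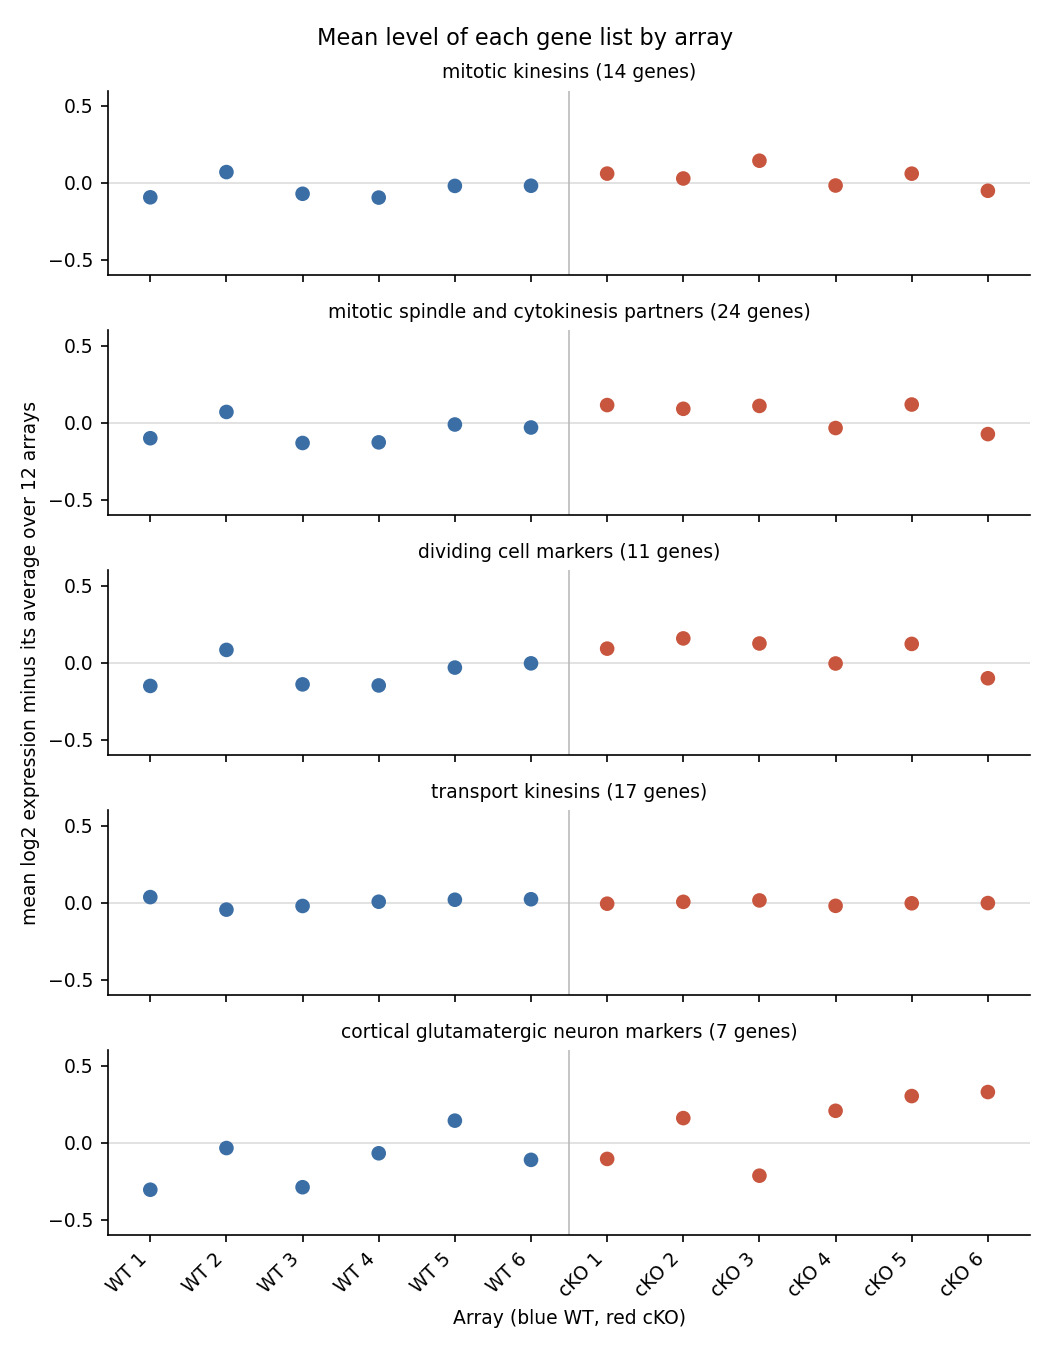
Mean log2 expression of 5 gene lists on each array, minus the average of the list over the 12 arrays, with WT in blue and cKO in red. Mitotic kinesins, spindle partners and dividing cell markers are high on WT 2 among the WT arrays, transport kinesins stay near 0 throughout, and cortical markers are lowest on cKO 3 among the cKO arrays.

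For the transport motors the differences were small and narrowly bounded. Over the 17 genes they ran from -0.073 to 0.080, and in limma 0 passed, with 1 higher and 1 lower before adjustment (p below 0.05). The 95% intervals of all 17 lay within 0.2 log2 units of 0, or 1.15-fold, as did those of 85.7% of all probe sets and of 8 of 14 mitotic genes. The intervals reached at most from -0.18 to 0.16. All 17 had mean levels above the median of all values, as did 50% of all probe sets.

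Kinesin-1 is the principal motor of fast axonal transport, and its heavy chain is encoded by Kif5a, Kif5b and Kif5c. Kif5a, the form largely restricted to neurons, spanned 9.30 to 9.44 over the WT arrays (median 9.39) and 9.24 to 9.41 over the cKO arrays (median 9.29). Of the cKO arrays, 3 lay below every WT array, and cKO replicate 6, at 9.41, lay below 1 WT array. The difference was -0.073 ± 0.030 (SE), with a 95% interval of -0.14 to -0.0070 (limma adjusted p = 0.395). The other heavy chains had differences of the opposite sign. Kif5c, also a neuronal form, spanned 10.71 to 10.88 over the WT arrays (median 10.74) and 10.74 to 10.88 over the cKO arrays (median 10.79), a difference of 0.040 ± 0.035 (adjusted p = 0.741). Kif5b, the form present in most tissues, spanned 9.37 to 9.56 over the WT arrays (median 9.49) and 9.51 to 9.59 over the cKO arrays (median 9.52), a difference of 0.049 ± 0.032 (adjusted p = 0.639).

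Kinesin-2 motors carry cargo along axons and build cilia. Kif3a, a subunit of the heterotrimeric motor, spanned 9.74 to 9.97 over the WT arrays (median 9.78) and 9.73 to 9.80 over the cKO arrays (median 9.76), and its WT arrays spread more widely than its cKO arrays. Its difference was -0.058 ± 0.037 (limma adjusted p = 0.628). Its partner subunits Kif3b and Kif3c differed by 0.012 ± 0.051 (adjusted p = 0.963) and -0.033 ± 0.033 (adjusted p = 0.779). Kif17, which carries NMDA receptor vesicles in dendrites, differed by 0.0073 ± 0.025 at a WT mean of 5.75, close to the median of the array.

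The kinesin-3 family includes the carriers of synaptic vesicle precursors. Kif1a spanned 10.53 to 10.89 over the WT arrays (median 10.80) and 10.63 to 10.75 over the cKO arrays (median 10.68), so that its cKO arrays lay within the WT range, and its difference was -0.054 ± 0.059 (limma adjusted p = 0.800). Kif1b, which moves mitochondria and synaptic vesicle precursors, spanned 10.68 to 11.02 over the WT arrays (median 10.89) and 10.82 to 10.93 over the cKO arrays (median 10.90), with a difference of 0.0074 ± 0.046 (adjusted p = 0.974). Kif13a, which transports endosomal cargo, was the transport gene with the largest positive difference. It spanned 6.19 to 6.39 over the WT arrays (median 6.28) and 6.30 to 6.40 over the cKO arrays (median 6.38), with 3 WT arrays below every cKO array and cKO replicate 2 below the other 5 cKO arrays. The difference was 0.080 ± 0.036 (SE; limma adjusted p = 0.444). Kif13b, Kif16b, a motor of early endosomes, and Kif1c differed by 0.022, 0.027 and -0.0095.

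Kif21a and Kif21b are kinesin-4 proteins that restrain microtubule growth in neurons. Their differences were 0.013 ± 0.046 (limma adjusted p = 0.952) and -0.0038 ± 0.037 (adjusted p = 0.986). Both genes had cKO arrays spread over most of the WT range. The C-terminal motors Kifc2 and Kifc3, which move towards minus ends, differed by -0.040 ± 0.060 (adjusted p = 0.869) and -0.071 ± 0.046 (adjusted p = 0.633). For Kifc3 3 WT arrays lay above all cKO arrays.

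Adaptors and tracks of the transport motors gave no call either. Of 25 measured light chains, adaptors and regulators, 9 had positive differences (median -0.018) and 0 passed in limma, and 2 were higher and 3 lower before adjustment (p below 0.05). Madd, which links Kif1 motors to Rab3 vesicles, differed by -0.10 ± 0.035 (limma adjusted p = 0.321) and Fez1, a kinesin-1 adaptor, by -0.12 ± 0.046 (adjusted p = 0.368). Of 22 genes for dynein and dynactin, which drive the opposite direction of transport, 0 passed (median 0.0070), and before adjustment 2 were higher and 1 lower (p below 0.05). The dynactin subunit gene Dctn3 differed by -0.11 ± 0.024 (adjusted p = 0.0577), a call only when WT replicate 5 was left out (adjusted p = 0.0112). The dynein adaptor gene Bicd2 differed by 0.14 ± 0.039 (adjusted p = 0.161). Of 23 genes for microtubule-associated proteins and tubulins 0 passed (median -0.0026), with 1 higher and 4 lower before adjustment (p below 0.05). Dcx, a microtubule protein of migrating neurons, differed by 0.076 ± 0.020 (adjusted p = 0.128; 0.0460 without cKO replicate 6) and Map6, which stabilises microtubules, by -0.14 ± 0.040 (adjusted p = 0.181).

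Neuronal markers on the same arrays were mixed. Of 7 pan-neuronal genes 0 passed in limma, with 1 higher and 1 lower before adjustment (p below 0.05). Rbfox3, an RNA-binding protein of maturing neurons, differed by 0.19 ± 0.048 (limma adjusted p = 0.124) and Nefm, a neurofilament subunit, by -0.25 ± 0.072 (adjusted p = 0.184). Of 11 markers of striatal projection neurons Pde10a, a phosphodiesterase, fell by 0.59 ± 0.085 (limma adjusted p = 0.00869), the only gene of this list past the threshold, and the list median was -0.20. Before adjustment 6 of the 11 were lower and 1 higher (p below 0.05). The mean of the transport motors over 17 genes was 8.27 ± 0.031 (SD, n = 6) over the WT arrays and 8.26 ± 0.012 (SD, n = 6) over the cKO arrays.

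The other kinesins included the negative difference of largest size. Kif26b, an atypical kinesin of the kinesin-11 family, spanned 6.50 to 6.80 over the WT arrays (median 6.70) and 6.49 to 6.61 over the cKO arrays (median 6.56). Of the WT arrays 4 lay above every cKO array, and WT replicate 2, at 6.50, was the lowest of its group. The difference was -0.12 ± 0.047 (SE), with a 95% interval of -0.22 to -0.014 (limma adjusted p = 0.380). Its relative Kif26a differed by 0.0020 ± 0.061 (adjusted p = 0.995). Kif26b is one of the non-mitotic genes whose promoter held both motifs.

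Kif2a, a microtubule depolymerase that limits axon branching, spanned 8.85 to 9.11 over the WT arrays (median 9.02) and 8.95 to 9.17 over the cKO arrays (median 9.05), and its difference was 0.040 ± 0.047 (limma adjusted p = 0.816). Kif24, which acts at centrioles to restrain cilia, differed by 0.055 ± 0.039 (adjusted p = 0.668). Kif7, which regulates Hedgehog signalling at the tip of the primary cilium, and its relative Kif27 differed by -0.0024 and 0.018. Their WT means, 5.71 and 5.61, lay below the median of all values.

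The motors linked to motile cilia, Kif6, Kif9 and Kif19a, differed by 0.024, -0.0094 and -0.021, with adjusted p values of 0.657, 0.919 and 0.620 in limma. Of 9 markers of motile cilia, ependyma and choroid plexus, a list that includes Ttr, 0 passed (limma; 1 lower at an unadjusted p below 0.05), and the axonemal gene Dnah9 and the cilium gene Spef2 differed by -0.039 (adjusted p = 0.278) and -0.025 (adjusted p = 0.523). The mean of this list was 6.16 on cKO replicate 1 and between 5.66 and 5.71 on the other cKO arrays. Of these 9 genes 6 had mean levels not above the median of all values. On cKO replicate 1, which had the high Ttr value, Kif6 read 5.79, Kif9 5.66 and Kif19a 5.57. The values of Kif6 and Kif9 lay within the range of the other cKO arrays, and that of Kif19a was the lowest. Kif12 and Kif28 differed by 0.011 and -0.0058, at WT means of 5.55 and 5.54.

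No marker of glia, vessels or microglia passed the test. In limma 0 of 5 astrocyte, 0 of 5 oligodendrocyte, 0 of 6 endothelial and mural and 0 of 5 microglial genes passed. At an unadjusted p below 0.05 there were 1 higher endothelial or mural gene and 1 lower microglial gene, and 0 in the other lists. Positive differences were found for 4 of 5 astrocyte (median 0.016), 4 of 5 oligodendrocyte (0.017), 5 of 6 endothelial and mural (0.081) and 2 of 5 microglial genes (-0.0054). The mean of the endothelial and mural list lay between 7.07 and 7.19 on WT arrays and between 7.12 and 7.25 on cKO arrays, with 3 cKO arrays above all WT arrays and 4 WT arrays below all cKO arrays. The pericyte gene Pdgfrb differed by 0.13 ± 0.052 (limma adjusted p = 0.377) and the endothelial gene Cldn5 by 0.075 ± 0.050 (adjusted p = 0.644). Values were 0.15 ± 0.082 for Aldh1l1 and -0.032 ± 0.020 for Gfap in astrocytes, -0.14 ± 0.080 for Olig1 and 0.017 ± 0.031 for Sox10 in the oligodendrocyte lineage, and -0.041 ± 0.018 for Tmem119 and 0.030 ± 0.017 for Aif1 in microglia, each with a limma adjusted p between 0.414 and 0.901. The part of these cells in the kinesin values was not tested.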

How the data were processed

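The authors deposited 1 column of log2 expression values per sample, made with RMA per the submitters' processing notes; the version is not given in the sources used here. Array files, probe positions and detection calls were not used, so precision rests on the 12 arrays alone. Symbols came from the platform annotation, updated by gene identifier through a RefSeq table of the GRCm38.p6 assembly. This changed 0 kinesin symbols, and 2 Kif-named probe sets that are not protein-coding, Kif4-ps and Kif16bos, were left out. The fit used lmFit and eBayes of limma 3.58.1 under R 4.3.3, two-sided and without covariate, for all 25428 probe sets. It was also run on simulated data with independent noise in each gene and with shifts larger than most kinesin differences. That run does not cover genes that vary together across arrays.

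The members and lists were chosen with earlier results of these data known. The text names every member, Foxp1 and, from each list, the called genes (4 at most, by size of change) or else the pair with the lowest p; Ttr was added after its values were seen. Of 186 listed partner and marker genes 175 were measured. Alternatives were other normalizations, a filter on dim probe sets, a trended prior, array weights, the replicate number, Y-linked or cortical levels as covariates, leaving out arrays and stricter thresholds.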

Additional observations from a re-analysis of the deposited data

Results flagged for a closer look

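In 142 combinations of a gene and a group of 6 arrays, 11 had a highest or lowest array separated from the next by a gap above Dixon's 95% critical share of the range of the group; chance gives about 1 in 20. Among mitotic kinesins these were WT replicate 2 for Kif4, at 5.93 with the next WT array at 5.78, and WT replicate 2 for Kif18a, at 5.98 with the next at 5.88. Among the transport kinesins they were cKO replicate 2 for Kif13a, at 6.30 below 6.37, and cKO replicate 2 for Kifc2, at 7.05 above 6.96. In the third class it was cKO replicate 6 for Kif28, at 5.49 below 5.53. In the partner and marker lists the low arrays were cKO replicate 5 for Madd (7.72) and Fez1 (8.39), WT replicate 5 for Dctn3 (10.71), cKO replicate 1 for Bicd2 (6.46), cKO replicate 6 for Dcx (12.19) and cKO replicate 4 for Nefm (5.71). Ttr was not among these combinations, and its values stand under the other observations.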

How the results depend on the processing

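The count of kinesin genes past the threshold was 0 in all 25 alternatives, and 0 genes had groups that did not overlap in the 23 that alter the values or samples. The mitotic median stayed between 0.046 and 0.088, and 11 to 13 mitotic differences were positive. Of the 42 genes 17 changed sign in at least 1 alternative, 3 of them mitotic, and none of these 17 had a difference larger than 0.051 in size; the other 25 kept theirs. The transport median ran from -0.014 to 0.0091 when 1 array was left out, so its sign has no weight. The count over all probe sets, 185, was 278 with dim probe sets left out, 64 with the replicate block, 55 with the cortical covariate, 61 at an adjusted p below 0.01, 30 with a 1.5-fold minimum and 106 to 227 with 1 array left out (106 without cKO replicate 2, 227 without WT replicate 1). Of the partner and marker genes 2 passed, Aurkb and Pde10a; the count was 7 with dim probe sets left out and with a trended, robust prior, 5 with array weights, 1 with the replicate block, 0 with the cortical covariate, 1 at an adjusted p below 0.01, 1 with the 1.5-fold minimum and 1 to 5 with 1 array left out. Whether replicate numbers pair the samples was not settled. Deviations of same-numbered arrays correlated between -0.22 and 0.15 over probe sets, which are not independent replicates. Differently numbered arrays were not compared in this way.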

Other observations

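Ttr, whose transcript is abundant in the choroid plexus, averaged 5.50 ± 0.065 (SD, n = 6) in WT. In cKO replicates 1 to 6 it read 9.96, 5.52, 5.50, 5.53, 5.54 and 5.54. The difference between groups was 0.76 ± 0.69 (SE; limma adjusted p = 0.749), set by 1 array. Without that array all of the 0 calls among kinesin genes stood, and 12 of 14 mitotic differences were positive.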
